A study of Mus musculus with 11 samples.

Results

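The genes described here encode proteins of the acellular matrices of the inner ear, and 10 of them were examined: Tecta, Tectb, Otog, Otogl, Otoa, Ceacam16, Oc90, Otor, Coch and Otos. They were chosen by name, with earlier results of these data known. Every non-control probe whose RefSeq transcript maps to one of these symbols was taken, which gave 11 probes among the 55681 on the array and 10 genes among the 20284 that could be named. Tectb has 2 probes and the other members 1 each. All 11 probes passed the filter on dim probes. For Tectb the brighter probe is the one described unless the other is named.

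The tectorial membrane of the cochlea is a gel of collagen fibrils embedded in a striated matrix of glycoproteins that lies over the sensory epithelium. Around birth it is secreted mainly by the supporting cells of the greater epithelial ridge, the tall columnar cells on the inner side of the hair cells. The vestibular organs carry a related gel beneath their otoconia, which are crystals of calcium carbonate on a protein core. Other secreted proteins of the cochlea come from the fibrocytes of the spiral limbus and spiral ligament. Mutations in the human counterparts of several of these genes, among them TECTA, OTOA, OTOG and COCH, cause hearing loss.

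RNA had been labelled with Cy3 and hybridized to 11 single-colour arrays. Otospheres (OS1 to OS6) are floating spheres grown from dissociated cochlear cells of ICR mice at postnatal day 1. They were taken after passage 1, and per the study's methods had been strained to keep solid spheres. Cochlear sensory epithelia (CSE1 to CSE3) were dissected fresh from ICR mice at postnatal day 1, 20 cochleae pooled per preparation, with the spiral ligament and stria vascularis pulled away. The embryonic stem cells (ESCs) were one array each of the lines G4-2 and D3, both at passage 13, so that their spread is also a difference between lines. The labels name no drug treatment for any group. The comparison of otospheres with CSE asks what sphere culture keeps of the tissue of origin, and ESCs serve as an unrelated stem cell reference.

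The arrays lay on 2 slides. Slide 1 held ES1, OS1 to OS3, CSE1 and CSE2, and slide 2 held ES2, OS4 to OS6 and CSE3. Among 10106 bright probes OS4 and OS5 differed by 0.445 times the spread between spots of 1 probe and OS1 and OS2 by 1.00 times, against at least 1.76 times for all other pairs within a group. The difference of OS4 from OS5 was thus below the sampling noise, and that of OS1 from OS2 was at its limit. Each pair was averaged and counted as 1 sample (OS1-2 and OS4-5), which leaves 2 ESC, 4 otosphere and 3 CSE samples. The labels do not say whether the samples of a group came from separate cultures or animals, so p-values measure only the spread between these samples. Median signal was 68 to 116 per array over a median local background of 32 to 38, and no spot was saturated. With so few arrays the precision is limited.

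The labels were checked against markers. Of 5 ESC genes, Pou5f1, Zfp42, Dppa5a and Dppa4 had log2 signals of 11.19 to 17.25 in ESCs and of at most 7.13 elsewhere. The probe named for Nanog read 8.5 and 8.26 in ESCs and 8.82 to 10.75 in the other samples, which goes against its name. Hair cell and supporting cell genes were present in CSE. So were genes of cells outside the epithelium. The mean log2 signal of 4 blood genes was 13.23 to 14.34 in CSE and 5.5 to 5.96 in otospheres, and Dct, a gene of pigment cells, was 9.36 to 12.33 in CSE against 4.76 to 6 in otospheres.

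Among the members, 10 of 10 differed among the 3 groups by the F-test of limma, where 33.8% of the 47997 kept probes did. In otospheres, 6 of the 10 fell below CSE (Tecta, Tectb, Otog, Oc90, Coch and Otos), where 6.19% of kept probes were lower, and 0 rose by limma, adjusted or at an unadjusted p under 0.05, where 4.84% were higher. Their median log2 difference was -3.63, against 0.02 over all kept probes. Against ESCs, 6 members were higher in otospheres, where 12.1% of kept probes were, and Ceacam16 was lower, where 15.6% were. Without ES1 the count of higher members was 3. Between CSE and ESCs, 9 members were higher in CSE, where 13.2% of kept probes were, and Ceacam16 was lower, where 15.6% were. The 3 comparisons share their samples. All values are log2 signals after background correction and quantile normalization. Because each probe binds with its own efficiency, a signal can be compared between samples but not between genes. In bulk RNA, fewer cells of a type and less RNA per cell cannot be told apart.

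**Figure D1:**
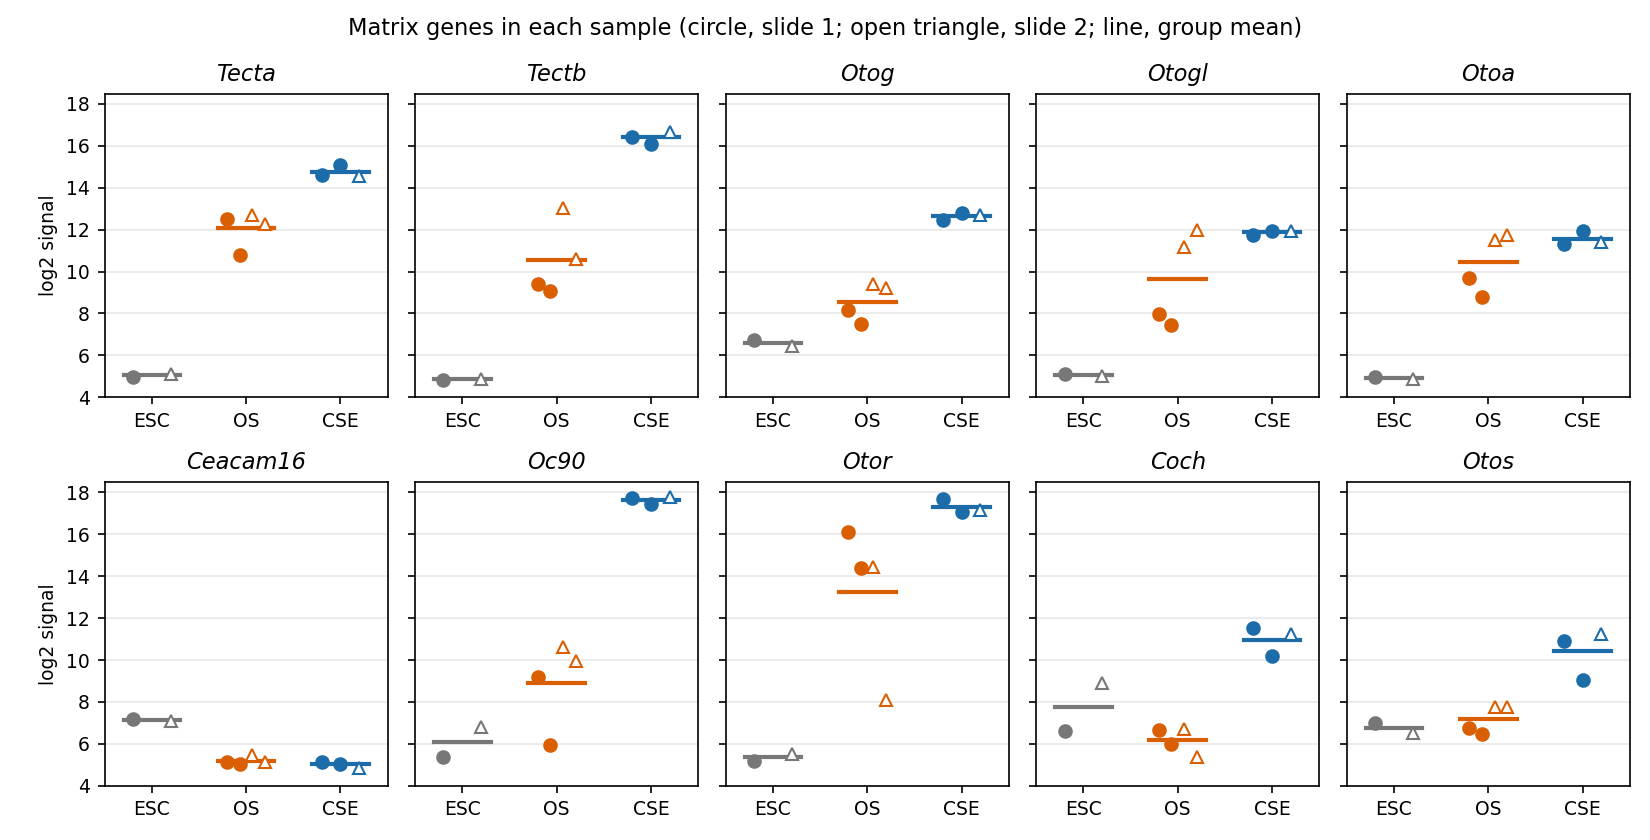
Log2 signal (vertical axis) of the 10 genes in the 2 ESC, 4 otosphere (OS) and 3 CSE samples, with slide 1 as filled circles, slide 2 as open triangles and the group mean as a line. CSE is the highest group for 9 genes, Ceacam16 is highest in ESCs, and Otor in OS6 lies at 8.11, far below the other otosphere samples.

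Tecta and Tectb encode the alpha- and beta-tectorins, zona pellucida domain proteins that form the striated-sheet matrix of the tectorial membrane. Both were high in CSE, lower in every otosphere sample and not above background in ESCs. Tecta had log2 signals of 14.59, 15.1 and 14.54 in CSE1 to CSE3, and of 12.52, 10.8, 12.7 and 12.26 in OS1-2, OS3, OS4-5 and OS6. The 2 ESC samples read 4.98 and 5.09. On the scanner's linear scale this was a median of 16826 to 24790 in CSE and 1082 to 12509.5 on the 6 otosphere arrays, while ESCs gave 37 and 42 over a background of 32 and 33. OS3 was the lowest otosphere sample, and no otosphere sample reached the lowest CSE sample. Otospheres minus CSE was -2.67 (standard error 0.42, 95% confidence interval -3.63 to -1.72; limma, adjusted p = 0.00429), a 6.37-fold fall. Tecta was still at least 103-fold higher in otospheres than in ESCs (limma, adjusted p = 2.02e-05) and at least 657-fold higher in CSE. For a bound, the bright group's mean was divided by the detection limit in ESCs, taken on each array as the dimmest signal that the scanner called well above background. Here and below, "at least" refers to that limit only. It covers neither the spread between samples nor the choice of offset, and a confidence interval can reach below it.

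Tectb was 16.43, 16.1 and 16.68 in the CSE samples. In otospheres it was 9.4 in OS1-2, 9.08 in OS3, 13.03 in OS4-5 and 10.6 in OS6. ESCs read 4.83 and 4.87, not well above background. The otosphere samples spanned 3.94 on the log2 scale, or 15.4-fold, against 0.58 for CSE, and the samples of slide 2 were the higher ones. The difference from CSE was -5.88 (standard error 0.81, 95% confidence interval -7.72 to -4.03; limma, adjusted p = 0.00234), a 58.7-fold fall, and -6.71 without OS4-5 (adjusted p = 0.000185). Of the 27933 probes that were well above background on every otosphere and CSE array, 5 fell further. The second Tectb probe, which is dimmer, gave 7.67, 7.65, 11.13 and 8.87 in the otosphere samples and 14.42, 14.96 and 15.24 in CSE. Its difference was -6.04 (limma, adjusted p = 0.00146), and both probes put the otosphere samples in the same order. Against ESCs the bound was at least 35.4-fold in otospheres and at least 2080-fold in CSE for the brighter probe, and at least 10.9-fold and 720-fold for the dimmer one.

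The promoters of Tectb and Otor are shown because OS4-5 and OS6 lay above OS1-2 and OS3 on average for Tectb and below them for Otor. For Otor, OS4-5 (14.45) was near OS3 (14.39), and the lower average rests largely on OS6 (8.11). RefSeq promoters (GRCm38.p6) were found for 7 of the 10 members: Tecta, Tectb, Otog, Otoa, Otor, Coch and Otos. The lines below give the 250 bases before the start, 5′ to 3′ on the gene's strand, which is the plus strand for both. For Tectb the stretch is chr19:55180476-55180725 and for Otor chr2:143078143-143078392. Capitals mark a match to GATAAG on either strand in Tectb (written there as its reverse complement, CTTATC) and to the TATA box TATAAA in Otor.
Tectb: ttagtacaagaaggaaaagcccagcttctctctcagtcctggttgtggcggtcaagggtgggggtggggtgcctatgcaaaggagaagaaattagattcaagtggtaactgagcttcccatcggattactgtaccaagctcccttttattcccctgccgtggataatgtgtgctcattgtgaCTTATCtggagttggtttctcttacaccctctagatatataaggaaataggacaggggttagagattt
Otor: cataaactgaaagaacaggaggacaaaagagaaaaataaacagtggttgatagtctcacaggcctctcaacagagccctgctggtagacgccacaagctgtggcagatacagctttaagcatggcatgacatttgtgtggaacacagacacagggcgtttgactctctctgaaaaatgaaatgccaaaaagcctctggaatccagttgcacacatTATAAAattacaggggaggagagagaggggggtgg
The TATAAA of Otor lies 35 to 30 bases before the start. Over all 32851 promoters, 12.4% hold TATAAA on either strand within the same 250 bases and 6.55% hold GATAAG. Among the members with a promoter, no other stretch holds either exact string. Variants were not searched, such as the tatataag in the Tectb stretch. The other motifs searched on both strands were CCAAT, found in 33.8% of all promoters and in Otog and Otoa, GGGCGG, found in 32.7% and in Coch, CANNTG, found in 66.2% and in Tecta, Tectb, Otog, Otor and Otos, and AACAAT, found in 9.42% and in no member. GATAAG and CANNTG share no letters in the Tectb stretch. The GC content was 46.0% for both printed stretches, against a median of 52.4%. These matches describe the letters and were not tested for binding.

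Otog and Otogl encode otogelin and otogelin-like, mucin-like glycoproteins found in the acellular membranes of the inner ear. Otog fell in all otosphere samples, while Otogl was low in 2 of them and near CSE in the other two. Otog was 12.47, 12.8 and 12.71 in CSE. Its otosphere values were 8.14 in OS1-2, 7.5 in OS3, 9.4 in OS4-5 and 9.19 in OS6, and ESCs read 6.75 and 6.45. The 3 groups did not overlap. Otospheres minus CSE was -4.1 (standard error 0.43, 95% confidence interval -5.07 to -3.13; limma, adjusted p = 6e-04), a 17.1-fold fall, and otospheres minus ESCs was 1.96 (limma, adjusted p = 0.0149). The second of these calls was lost without ES1 (adjusted p = 0.0524) or ES2 (adjusted p = 0.0878).

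Otogl was close to constant in CSE at 11.73, 11.94 and 11.93. In otospheres it was 7.98 in OS1-2 and 7.44 in OS3 but 11.18 in OS4-5 and 11.98 in OS6. The last value lies above all CSE samples, so the groups overlapped. ESCs read 5.12 and 4.99, not well above background. Otospheres minus CSE was -2.22 (95% confidence interval -4.54 to 0.09; limma, adjusted p = 0.245), which did not pass the threshold. Within slide 1 the difference was -4.12 and within slide 2, which holds 1 CSE array, it was -0.35. On slides 1 and 2, the CSE means were 11.84 and 11.93. Among otospheres, set and slide coincide, and the part of either was not tested. By group means, Otogl was at least 19.2-fold higher in otospheres than in ESCs (limma, adjusted p = 0.0166), a call lost without ES1 or ES2, and at least 89.5-fold higher in CSE. The fitted otospheres minus ESCs was 4.59, with a 95% confidence interval of 1.96 to 7.21.

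Otoa encodes otoancorin, which anchors the tectorial membrane to the spiral limbus, and Ceacam16 a secreted adhesion protein that binds alpha-tectorin in the mature membrane. Otoa overlapped CSE in some otosphere samples and lay below it in others, and Ceacam16 was near or below background in otospheres and CSE. Otoa was 11.33, 11.94 and 11.39 in CSE. It was 9.69 in OS1-2, 8.8 in OS3, 11.52 in OS4-5 and 11.72 in OS6, and 4.98 and 4.87 in ESCs. OS4-5 and OS6 fell inside the CSE range, while OS1-2 and OS3 were below it. Otospheres minus CSE was -1.12 (95% confidence interval -2.61 to 0.37; limma, adjusted p = 0.397), with -2.39 within slide 1 and 0.23 within slide 2. Otoa was at least 33.1-fold higher in otospheres than in ESCs (limma, adjusted p = 0.000707) and at least 72.1-fold higher in CSE.

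Ceacam16 had log2 signals of 5.14, 5.05 and 4.86 in CSE and of 5.11, 5.02, 5.46 and 5.13 in OS1-2, OS3, OS4-5 and OS6. None of the 3 CSE arrays and 1 of the 6 otosphere arrays, OS4, was well above background. ESCs read 7.2 and 7.07, both above background. It was the one member that was higher in ESCs, at least 3.92-fold over CSE (limma, adjusted p = 8.95e-05). The fitted otospheres minus ESCs, -1.95 (limma, adjusted p = 0.000103), rests on a probe near background in otospheres. It was -1.31 with an offset of 50 and -4.19 with the scanner's processed signal scaled to the 75th percentile, so that its direction but not its size can be read. A difference between otospheres and CSE was not detectable at this signal over background.

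Oc90 encodes otoconin-90, the main soluble protein of the otoconial core. It had the largest fall of all members. CSE gave 17.72, 17.45 and 17.77. Otospheres gave 9.19 in OS1-2, 5.92 in OS3, 10.61 in OS4-5 and 9.96 in OS6, and ESCs 5.35 and 6.82. On the linear scale the CSE arrays read 163383 to 211725 and the otosphere arrays 54 (OS3) to 2958 (OS4). Every otosphere sample was far below every CSE sample, and OS3 lay between the ESC samples. The otosphere mean differed from CSE by -8.72 (standard error 0.98, 95% confidence interval -10.94 to -6.5; limma, adjusted p = 0.000846), a 423-fold fall, and by -7.72 without OS3 (adjusted p = 0.000129). Of 27933 probes well above background on every otosphere and CSE array, 1 fell further. Within slide 1 the difference was -10.03 and within slide 2 it was -7.49. The blood genes named above moved the same way (median otospheres minus CSE -9.21 over 4 genes), and the part of blood or other lost cell types in the fall of Oc90 was not tested. Of the 2 ESC arrays, ES1 was not well above background. Against ESCs, otospheres differed by 2.84 (95% confidence interval 0.32 to 5.35; limma, adjusted p = 0.0928). That difference was 3.84 without OS3 (adjusted p = 0.00116), 2.28 without OS4-5 (adjusted p = 0.179) and 2.1 without ES1 (adjusted p = 0.373). CSE minus ESCs was 11.56 (limma, adjusted p = 0.000153).

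Otor, Coch and Otos encode otoraplin, cochlin and otospiralin, secreted proteins known from the fibrocytes and connective tissue of the cochlea. Each of them lay below CSE in all 4 otosphere samples, and they parted in how they compared with ESCs. Otor stayed far above its ESC level in 3 of 4 samples, whereas the otosphere samples of Coch and Otos overlapped the ESC samples. Otor was 17.67, 17.06 and 17.15 in CSE and 5.16 and 5.53 in ESCs, where it was not well above background. It was 16.1 in OS1-2, 14.39 in OS3 and 14.45 in OS4-5, but 8.11 in OS6. On the linear scale OS6 gave 225 over a background of 32, and the other otosphere arrays 12914 to 83959. The otosphere samples thus spanned 7.99 on the log2 scale, or 254-fold, the widest range of the members. All 4 lay below all CSE samples. The difference from CSE was -4.03 (standard error 1.58, 95% confidence interval -7.62 to -0.44; limma, adjusted p = 0.167), which did not pass the threshold. Without OS6 it was -2.31 and did (adjusted p = 0.0169). By group means, Otor was at least 236-fold higher in otospheres than in ESCs (limma, adjusted p = 0.01), a call lost without ES1, and at least 3850-fold higher in CSE. The fitted otospheres minus ESCs was 7.92, with a wide 95% confidence interval of 3.85 to 12.

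Genes of fibrocytes and mesenchyme were also lowest in OS6. Over the 8 genes of that list the mean log2 signal was 11.17 in OS1-2, 11.53 in OS3, 10.68 in OS4-5 and 9.1 in OS6, and 11.88 to 12.28 in CSE. Col1a2, the alpha 2 chain of type I collagen, was 8.61 in OS6 against 13.3 to 15.89 in the other otosphere samples. Tbx18, a transcription factor of otic mesenchyme, was 5.47 against 8.85 to 10.59. Dcn and Lum, proteoglycans of connective tissue, did not share this pattern, with 15.51 and 15.05 in OS6. Otor therefore moved with some of the list and not with all of it, and the part of these cells in its level was not tested.

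Coch was 11.51, 10.18 and 11.22 in CSE. It was 6.65, 5.99, 6.69 and 5.38 in OS1-2, OS3, OS4-5 and OS6, the last not well above background, and 6.63 and 8.91 in ESCs. The highest otosphere sample was below the lowest CSE sample. The difference from CSE was -4.79 (standard error 0.57, 95% confidence interval -6.1 to -3.49; limma, adjusted p = 0.00117), a 27.8-fold fall. Against ESCs it was -1.59 (limma, adjusted p = 0.107), -2.73 without ES1 (adjusted p = 0.0147) and -0.45 without ES2 (adjusted p = 0.68). CSE minus ESCs was 3.2 (limma, adjusted p = 0.00755), 2.06 without ES1 (adjusted p = 0.0491) and 4.35 without ES2 (adjusted p = 0.00214). Both values thus depended on which ESC array was used. Line and array cannot be told apart here, since each line had a single array, and these lay on different slides. On slides 1 and 2, Coch averaged 10.85 and 11.22 in CSE and 6.32 and 6.03 in otospheres. The part of slide was not tested.

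Otos was 10.93, 9.05 and 11.24 in CSE, the widest CSE range of the members, 2.18. It was 6.76, 6.45, 7.74 and 7.77 in the otosphere samples and 6.98 and 6.53 in ESCs. The otosphere samples overlapped the ESC samples and lay below all CSE samples. Its difference from CSE was -3.23 (standard error 0.55, 95% confidence interval -4.47 to -1.99; limma, adjusted p = 0.00606), a 9.37-fold fall, and -3.91 without CSE2 (adjusted p = 0.0017). Otospheres minus ESCs was 0.42 (95% confidence interval -0.98 to 1.83; limma, adjusted p = 0.674).

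**Figure D2:**
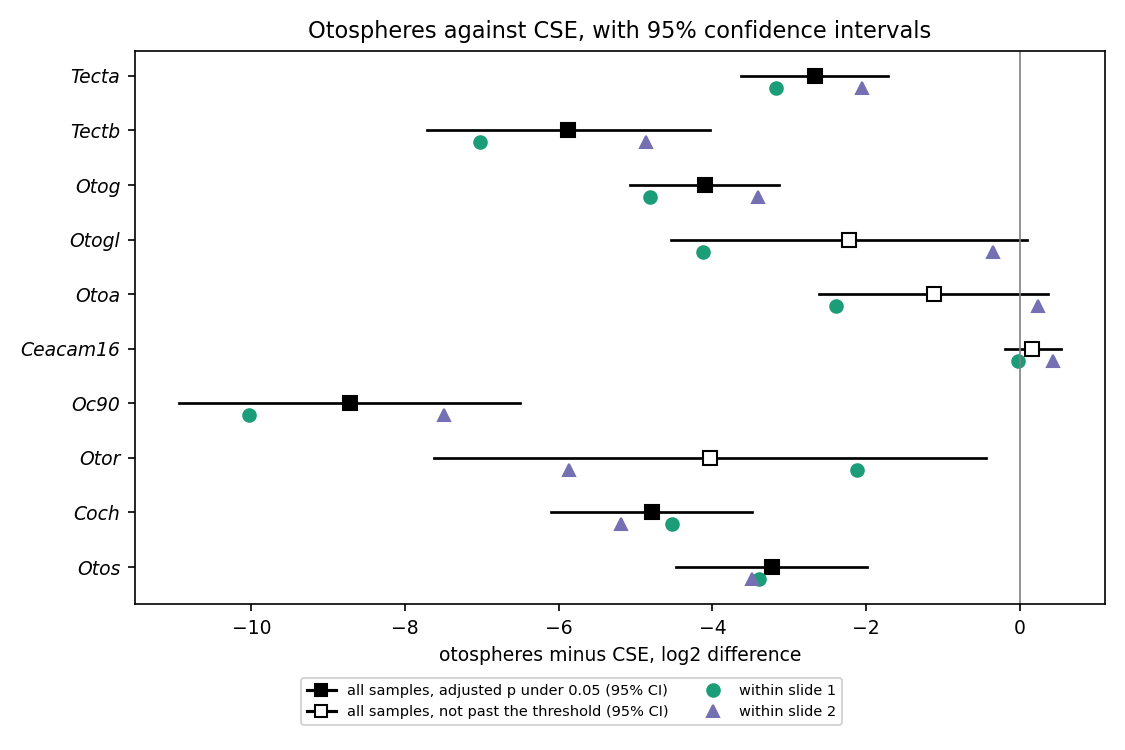
Otospheres minus CSE on the log2 scale (horizontal axis) for each gene. Squares with bars are the limma difference and its 95% confidence interval, filled where the adjusted p is under 0.05, and the circles and triangles are the differences within slide 1 and slide 2. Oc90 is farthest from 0 at -8.72, and Otogl and Otoa lie nearer to 0 on slide 2 (-0.35 and 0.23) than on slide 1 (-4.12 and -2.39).

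The order of the groups was ESC, otospheres, CSE for the means of Tecta, Tectb, Otog, Otogl, Otoa, Oc90, Otor and Otos. Neighbours in that order that did not pass the test were otospheres and CSE for Otogl, Otoa and Otor, and ESCs and otospheres for Oc90 and Otos. For Coch the order was otospheres, ESC, CSE, and the lower pair did not pass. For Ceacam16 it was CSE, otospheres, ESC, and again the lower pair did not pass.

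Several members varied widely among otospheres. The range over the 4 otosphere samples was 2 or more on the log2 scale for 5 of 10 members (Tectb, Otogl, Otoa, Oc90 and Otor), as it was for 5.56% of kept probes. The median range of all kept probes was 0.59 over otospheres and 0.47 over the 3 CSE samples. In CSE, the range was 0.20 to 0.61 for 8 members, and 1.33 for Coch and 2.18 for Otos. The mean of OS4-5 and OS6 exceeded that of OS1-2 and OS3 by 3.86 for Otogl, 2.73 for Oc90, 2.57 for Tectb, 2.38 for Otoa, 1.48 for Otog, 1.15 for Otos, 0.82 for Tecta and 0.23 for Ceacam16. For Coch it was -0.29 and for Otor -3.97. Leaving aside Ceacam16, which was near background, OS3 was the lowest otosphere sample for 7 of 9 genes and OS6 for Otor and Coch. Of the otosphere arrays, OS3 also had the lowest median signal (68) and the fewest probes well above background (58.5%). The part of array signal in its low values was not tested. The hair cell list, of 8 genes, ran the same way as Otogl and Otoa, with mean log2 signals of 7.68 and 7.11 in OS1-2 and OS3 and 8.5 and 9 in OS4-5 and OS6, and 9.98 to 10.11 in CSE. It was not alone in this. In the same order, tectorial membrane collagens gave 11.49, 11.42, 12.49 and 12.09, and supporting cell genes 9.24, 9.15, 9.63 and 9.45. The duct roof list also ran this way, the fibrocyte and glia lists ran the other way, and the remaining lists were mixed. The part of any cell type or of the slide in these ranges was not tested.

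**Figure D3:**
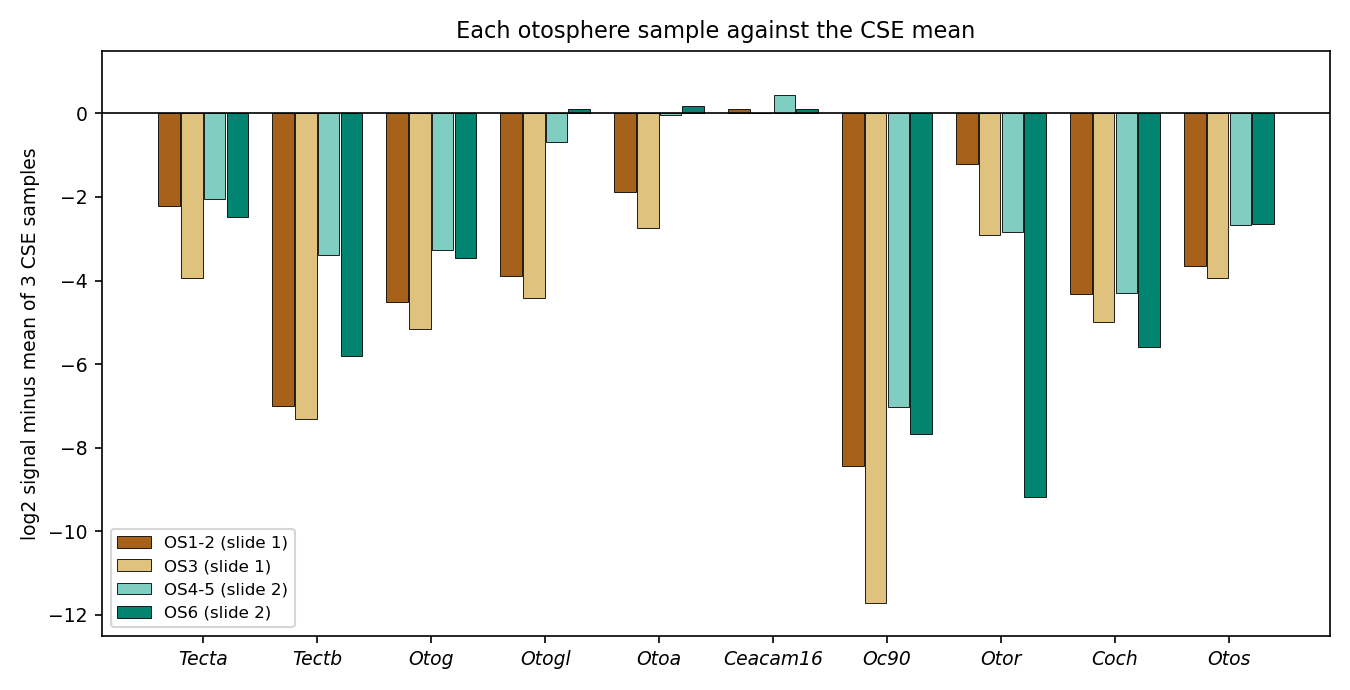
Log2 signal of each otosphere sample minus the mean of the 3 CSE samples (vertical axis), with 1 bar for each of OS1-2, OS3, OS4-5 and OS6 at every gene. For Otogl and Otoa the bars of OS4-5 and OS6 are near 0 (-0.69 and 0.11, -0.03 and 0.17), and for Otor the bar of OS6 reaches -9.18 while the others stop at -2.9.

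Most collagens of the tectorial membrane's fibrils fell in otospheres. Of 7 collagen genes, 6 were lower in otospheres than in CSE, 0 were higher and Col5a1 was not called, with a median difference of -3.21 against 0.02 over all kept probes. Of all kept probes, 6.19% were lower and 4.84% higher, which also applies to the lists below. Col9a1, a chain of type IX collagen, was 12.69, 13.09, 12.65 and 11.36 in the otosphere samples and 16.07 to 16.69 in CSE, a difference of -3.86 (limma, adjusted p = 0.000451). Col2a1, the chain of type II collagen, was 13.48 and 12.59 in OS1-2 and OS3, 15.94 and 16.19 in OS4-5 and OS6 and 17.62 to 18.03 in CSE (-3.28; limma, adjusted p = 0.0366). Col9a3 also fell by 3.28 (limma, adjusted p = 0.000889). Col5a1, a chain of type V collagen, was 10.35 to 11.81 in otospheres and 11.48 to 12.09 in CSE.

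Of 7 genes for attachment and for partners at the apical surface, 0 passed the threshold by limma in either direction, 1 was higher and 2 were lower at an unadjusted p under 0.05, and the median difference was -0.02. Strc, for stereocilin, which ties outer hair cell stereocilia to the tectorial membrane, was 5.55 to 7.43 in otospheres and 6.65 to 8.26 in CSE. Emilin2, an extracellular glycoprotein, was 11.75, 11 and 10.33 in OS1-2, OS3 and OS4-5 and 6.13 in OS6, against 12.37 to 12.94 in CSE (-2.82; limma, adjusted p = 0.18). Its low value in OS6 is the one seen for Otor. Strc, Emilin2 and Col5a1 were chosen for naming after their values were seen.

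The other otoconial and endolymph genes were mixed. Of 12, 11 were tested, 3 were higher in otospheres than in CSE, 2 were lower and 6 were not called, with a median of -0.12. Over all kept probes, 4.84% were higher and 6.19% lower. Nox3, for the oxidase needed to form otoconia, did not pass the filter. Otol1, for otolin, the collagen-like scaffold of otoconia, was 11.46, 11.55, 11.82 and 9.61 in the otosphere samples and 9.14, 8.37 and 9.69 in CSE. It rose by 2.04 (limma, adjusted p = 0.0398), although OS6 fell within the CSE range, and it was not well above background in ESCs. The proton channel gene Otop1 and Cyba, a subunit of NADPH oxidases, were the other 2 that rose, by 1.89 (limma, adjusted p = 0.00239) and 1.68 (adjusted p = 0.00483). Atp2b2, a calcium pump that hair cells also use, fell by 2.84 (limma, adjusted p = 0.00295) and Car2, a carbonic anhydrase, fell by 2.18 (adjusted p = 0.0262).

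Markers of the cells that secrete these proteins were followed, along with markers of other cell types. Of 10 genes of supporting cells and the greater epithelial ridge, 9 were lower in otospheres than in CSE. The tenth, S100a1, a calcium-binding protein gene, was 13.52 to 14.99 in otospheres and 12.03 to 13.63 in CSE (1.46; limma, adjusted p = 0.107). Hes5, a Notch target, had the largest fall, 7.37, to 5.34 to 6.7 from 12.89 to 13.72 (limma, adjusted p = 2.37e-05), followed by Fgfr3 with 3.91 (adjusted p = 0.000134). Epyc, a proteoglycan gene of the greater epithelial ridge, fell by 0.83 (adjusted p = 0.0157) and was still 14.54 to 15.05 in otospheres. The mean of the list was 9.15 to 9.63 in otospheres and 11.78 to 12.16 in CSE. Of 8 hair cell genes 4 were lower, and of 8 fibrocyte and mesenchyme genes Car3 alone was (-4.69; limma, adjusted p = 0.000797). The duct roof list of 5 genes gave 1 higher and 2 lower, the stria list of 6 gave 1 higher and 3 lower, the glia list of 4 gave 1 higher and 2 lower, and the blood list gave 4 lower of 4. Over all kept probes, 4.84% were higher and 6.19% lower. Of the blood genes, Hbb-bt and Alas2 were not well above background on any otosphere array. The median difference of these marker lists was below 0, from -0.58 (stria) to -9.21 (blood), except for the ESC list with 0.17, where 0 of 5 genes were called by limma, adjusted or not. How much of the members' change goes with these cell types was not tested.

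**Figure D4:**
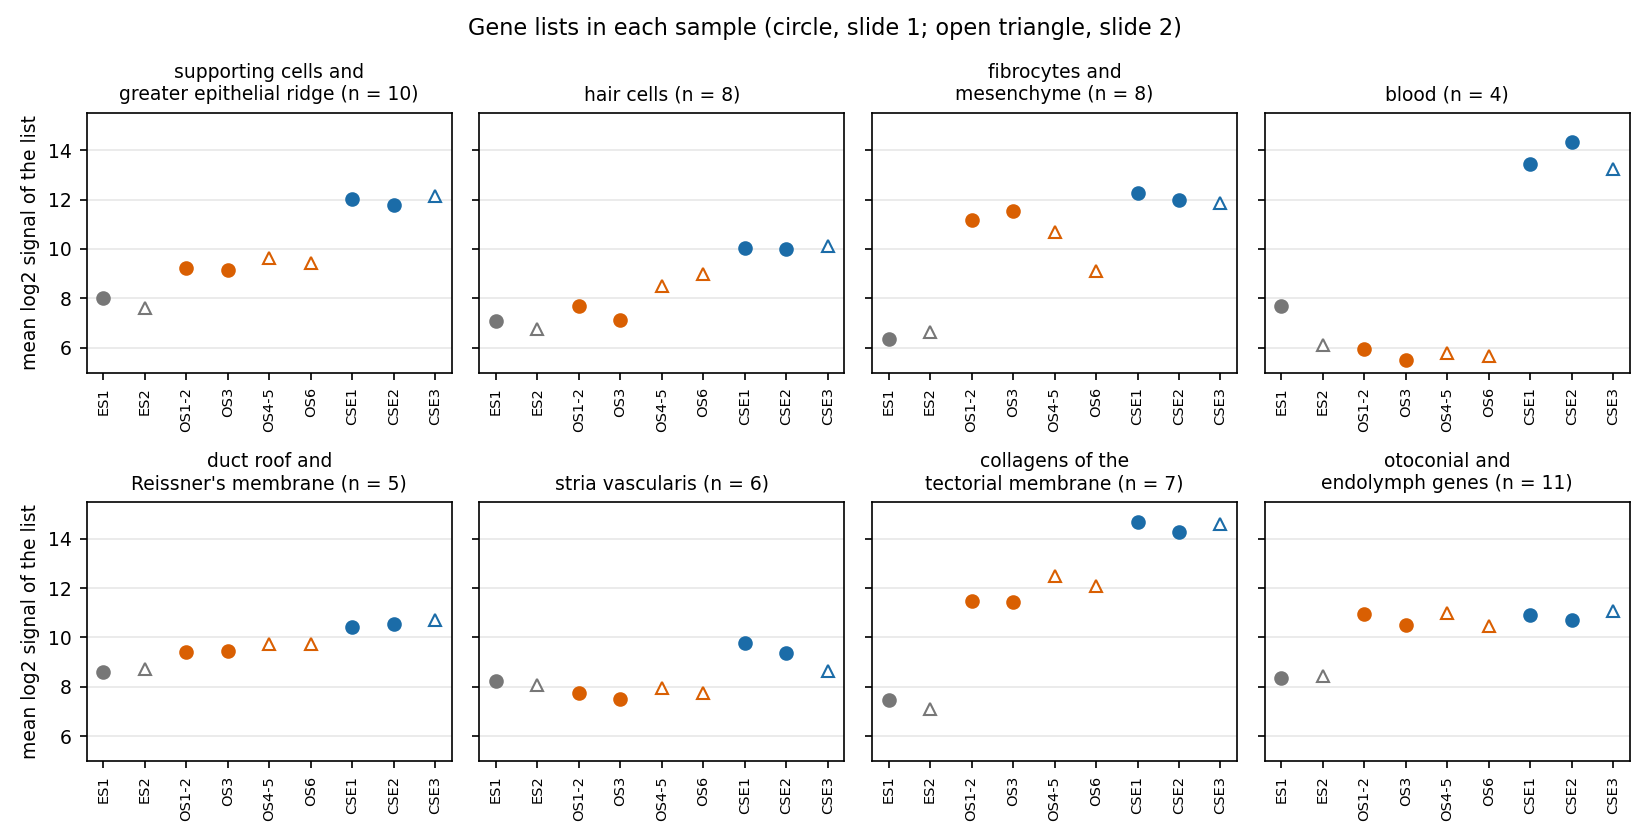
Mean log2 signal of 8 gene lists (vertical axis) in each of the 9 samples, with n the number of genes, grey for ESCs, orange for otospheres, blue for CSE, circles for slide 1 and open triangles for slide 2. Blood genes drop from 13.23 to 14.34 in CSE to at most 5.96 in otospheres, the fibrocyte list is lowest among otospheres in OS6 (9.1), and the hair cell list is higher in OS4-5 and OS6 (8.5 and 9) than in OS1-2 and OS3.

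The genes most like Tecta, Otor and Oc90 over the 9 samples were found among 18564 named genes as those with the smallest root mean square difference after each profile was centred on its mean. For Tecta they were Smoc2 (0.60 on the log2 scale), Gjb2 (0.76), Ogn (0.86), Ecrg4 (0.89) and Itga8 (0.89). Smoc2 encodes a matrix protein and Gjb2 connexin 26, the gap junction protein of supporting cells and fibrocytes. Gjb2 was 12.9 to 13.42 in otospheres and 14.75 to 15.09 in CSE. For Otor they were Aqp1 (1.33), Kctd12 (1.45), Fap (1.67), Col9a1 (1.69) and Pantr1 (1.72). Aqp1, a water channel of fibrocytes, was 13.15, 12.49 and 12.49 in the first 3 otosphere samples and 7.27 in OS6. For Oc90 they were Tectb (1.67), Hbb-bt (1.68), Fabp7 (1.81), Hbb-b2 (1.96) and Clec18a (2.26). Hbb-bt and Hbb-b2 encode beta globins that are near copies of each other, and their probes may cross-hybridize. The order of these genes has no test, and the distances are larger for Oc90 and Otor than for Tecta.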

How the data were processed

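The files hold Cy3 signals of 11 arrays. In the deposited scanner files, made with Feature Extraction 10.7.3.1, each spot has a median intensity and a local background, both linear and unscaled between arrays, and a processed intensity. A log2 table that the authors had corrected for background, quantile-normalized and filtered was used as an alternative. Medians were corrected by normexp (offset 16) in limma 3.58.1 under R 4.3.3, converted to log2 and quantile-normalized. Control probes and outlier spots were removed, and a probe's spots were averaged. A probe had to exceed the 95th percentile of 308 negative controls by 10% on 2 arrays or more, which 47997 of 55681 did.

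Genes were named through RefSeq accessions (26762 probes). The 9 averaged samples entered a limma model of 3 group means, with an F-test and pairwise contrasts. P-values were adjusted by Benjamini-Hochberg over all kept probes and called under 0.05. The fit was tested on simulated data. All members are named, and from each further list the called gene with the largest rise and the 2 with the largest falls, besides markers that describe the labels. For 3 members the 5 genes nearest in profile are named. Members and lists were chosen with earlier results of these data known. Alternatives were the offset (0 and 50), 75th percentile scaling, the deposited table, the filter, every array separate, blocks of replicate number or slide, the other Tectb probe and leaving out each sample.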

Additional observations from a re-analysis of the deposited data

Results flagged for a closer look

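The difference of Otoa between otospheres and CSE was -2.39 on slide 1 and 0.23 on slide 2, opposite in sign. The slides differed by 2.62 (interaction of group and slide in limma, added after the data were seen, unadjusted p = 0.00413, adjusted p = 0.791), which fails the adjustment over all probes. Ceacam16, near background, also changed sign, from -0.03 to 0.43 (unadjusted p = 0.189). For Otogl the slides differed by 3.77 (limma, unadjusted p = 0.000437, adjusted p = 0.701), with the same sign on both. Over all kept probes 0 passed the adjusted threshold in limma for this interaction, and 2914 had an unadjusted p under 0.05. Slide 2 holds 1 CSE array. On slides 1 and 2, Otoa averaged 11.63 and 11.39 in CSE and 9.24 and 11.62 in otospheres. For Otogl the values were 11.84 and 11.93 in CSE and 7.71 and 11.58 in otospheres. Among otospheres, set and slide coincide, and the part of either was not tested.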

How the results depend on the processing

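Over 19 alternatives, the 10 members kept direction and side of the threshold in 186 of 190 results for otospheres minus CSE (4 came to pass it), in 190 of 190 for CSE minus ESCs and in 180 of 190 for otospheres minus ESCs. In the last, 5 calls were lost, 4 were gained and Otos changed sign without a call, from 0.42 to -0.26, in the fit with the replicate block and every array separate (limma, adjusted p = 0.795). Some of these results could not move. The alternative with the other Tectb probe can change only Tectb, and the filter alternatives change adjusted p-values but no difference. The replicate block also brought Otogl (-4.07, adjusted p = 0.00075), Otoa (-2.16, 0.00497) and Otor (-1.76, 0.0445) past the threshold between otospheres and CSE. The labels do not say that the numbers pair the samples. Deviations of OS and CSE arrays of the same number correlated at 0.356, -0.341 and -0.393. These values cannot decide whether the numbers pair the samples, because deviations of arrays within a group are not independent. With 1 sample left out at a time, 3 to 7 members were called higher and 1 to 2 lower in otospheres than in ESCs. The 3 and the 2 came without ES1, where ES2 is assumed to vary like the other groups. Oc90 passed against ESCs without OS3 (3.84; 2.1 without ES1, adjusted p = 0.373), with every array separate (3.17, adjusted p = 0.0322) and when slide was a block (2.84, adjusted p = 0.0487). The cause was not tested. Scaling to the 75th percentile moved the median of all probes for otospheres minus ESCs from -0.03 to -0.28. Signal over background limits Ceacam16 in otospheres and CSE, Coch in OS6, Tecta, Tectb, Otogl, Otoa and Otor in ESCs, and Oc90 in ES1.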
